A study of Mus musculus with 24 samples.

Results

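FOXP1 and TCF7L2 were mapped by chromatin immunoprecipitation sequencing (ChIP-seq) in the same tissue and at the same age, mouse cortex at E18.5 (embryonic stage, in days), and their peaks were compared place by place. A peak is a stretch of the genome where reads from the immunoprecipitated chromatin pile up above background. Every peak on chromosomes 1 to 19 of both lists was used, 24526 of FOXP1 and 52595 of TCF7L2, together 77121 of the 311477 peaks that the 6 lists of the series hold on these chromosomes. A peak that shared at least 1 base with a peak of the other regulator was counted as shared. This gave 3173 FOXP1 peaks without TCF7L2, 21353 FOXP1 peaks with TCF7L2, 20855 TCF7L2 peaks with FOXP1, and 31740 TCF7L2 peaks without FOXP1, and no peak was left out.

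The tissue came from wild-type mice on a CD1 background, with no transgene or treatment, so both groups carried the same genotype and differed in the antibody. Each regulator had 2 ChIP libraries and 2 input libraries at this stage. The replicates were merged before peaks were called, so there was 1 list per regulator and the spread between replicates cannot be given. The labels call the second target TCF4, the older protein name of TCF7L2, while the gene Tcf4 encodes a different factor, and the antibody recognises TCF7L2. Dissected cortex is a mixture of cell types, and a weaker peak can come from fewer cells with the factor or from less binding in each cell, which cannot be told apart here.

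FOXP1 is a forkhead transcription factor that is abundant in projection neurons of the cortex and striatum and can repress or activate its targets. Forkhead proteins recognise short A/T-rich cores such as TGTTTAC, and FOXP1 can pair with its relatives FOXP2 and FOXP4. TCF7L2 belongs to the TCF/LEF family, the DNA-binding end of canonical Wnt signalling. With β-catenin it activates genes such as Axin2, which feeds back to restrain the pathway, and without β-catenin it recruits corepressors. Its core site reads ATCAAAG.

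Depth differed between the lists. Fold enrichment (pileup at the summit over background, with 1 added to both) and p-value of all peaks were tied by 1 constant background per list, 2.81 for FOXP1 and 8.14 for TCF7L2. Neighbouring FOXP1 pileups were 0.561 apart and those of TCF7L2 1, so each FOXP1 read was counted as 0.561, the scaling MACS2 applies to a ChIP larger than its input. Unscaled, the ChIP libraries correspond to about 46.9 M reads for FOXP1 and 76.1 M for TCF7L2, if the genome size MACS2 sets for mouse was used. The weakest FOXP1 peak stood at 3.21-fold and the weakest TCF7L2 peak at 2.41-fold. Of the TCF7L2 peaks without FOXP1, 14367 (45.3%) reached the lowest FOXP1 value. Depth and antibody differ together between the lists, and their parts in the class sizes cannot be told apart. All intervals are 95% Wilson intervals, which cover counting error only, since neighbouring peaks are not independent.

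The sequences at the summits differed in kind between the classes, and those that carry the findings are shown first. All were read from GRCm38 on the plus strand. At the strongest FOXP1 peaks without TCF7L2 the 200-base window around the summit was often filled by a run of the trinucleotide AAC or, read on the other strand, GTT. In the windows of 3 such peaks, runs of at least 15 bases are in capitals. Each is named by the protein-coding gene with the nearest TSS, which can be far away. The first lies at chr14:107858498-107858697, intergenic and 1055560 bp from the Slitrk1 TSS. The second lies at chr17:45139660-45139859, intergenic and 275924 bp from the Cdc5l TSS, and the third at chr7:142672403-142672602, intergenic with the Gm49394 TSS as the nearest.
Slitrk1, 30.7-fold: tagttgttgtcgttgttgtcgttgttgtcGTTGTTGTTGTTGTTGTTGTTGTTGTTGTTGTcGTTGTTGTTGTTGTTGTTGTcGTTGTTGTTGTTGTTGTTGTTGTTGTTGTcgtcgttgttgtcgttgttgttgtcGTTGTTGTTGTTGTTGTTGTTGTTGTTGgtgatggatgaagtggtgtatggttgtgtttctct
Cdc5l, 25.1-fold: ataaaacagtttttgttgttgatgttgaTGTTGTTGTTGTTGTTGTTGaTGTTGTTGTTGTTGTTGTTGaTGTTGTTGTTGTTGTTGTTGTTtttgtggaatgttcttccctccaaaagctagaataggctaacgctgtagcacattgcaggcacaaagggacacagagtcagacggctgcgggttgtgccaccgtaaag
Gm49394, 22.6-fold: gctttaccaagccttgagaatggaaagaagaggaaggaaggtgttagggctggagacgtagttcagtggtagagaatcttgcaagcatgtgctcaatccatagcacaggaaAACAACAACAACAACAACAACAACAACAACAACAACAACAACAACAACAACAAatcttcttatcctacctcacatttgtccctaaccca

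A second kind of FOXP1 peak without TCF7L2 covered the coding exons of Foxp2, the gene of a close relative of FOXP1. The window chr6:15394597-15394896 holds a whole coding exon, in capitals, with intron on either side, and the peak over it was the highest of all FOXP1 peaks without TCF7L2.
Foxp2 coding exon, 32.3-fold: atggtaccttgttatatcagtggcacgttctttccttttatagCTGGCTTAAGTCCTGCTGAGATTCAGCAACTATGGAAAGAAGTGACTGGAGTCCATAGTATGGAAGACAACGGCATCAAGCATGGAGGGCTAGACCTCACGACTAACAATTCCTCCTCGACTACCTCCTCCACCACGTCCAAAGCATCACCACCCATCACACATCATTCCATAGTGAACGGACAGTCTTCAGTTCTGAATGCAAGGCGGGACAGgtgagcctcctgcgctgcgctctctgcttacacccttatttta

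The highest TCF7L2 peaks without FOXP1 instead held the TCF/LEF core more often than the rest of their class. The core, on either strand, is in capitals in 2 of them, at chr9:46443545-46443744, intergenic and nearest to the protein-coding gene 4931429L15Rik, and at chr5:37895858-37896057, within 2000 bp downstream of the start of Gm20052 and upstream of Msx1, a homeobox gene and the nearest protein-coding one.
4931429L15Rik, 11.6-fold: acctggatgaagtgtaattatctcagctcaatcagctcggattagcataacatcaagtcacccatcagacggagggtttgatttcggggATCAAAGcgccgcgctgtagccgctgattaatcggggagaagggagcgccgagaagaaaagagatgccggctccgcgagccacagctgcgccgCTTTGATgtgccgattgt
Msx1, 10.4-fold: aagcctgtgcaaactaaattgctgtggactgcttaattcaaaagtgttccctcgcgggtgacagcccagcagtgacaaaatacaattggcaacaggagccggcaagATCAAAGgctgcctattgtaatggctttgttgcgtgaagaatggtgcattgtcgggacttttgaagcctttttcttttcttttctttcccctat

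At promoters bound by both, some of the higher FOXP1 peaks held the palindromic E-box TCACGTGA, in capitals in the promoters of Rnasek (chr11:70239950-70240149), an endoribonuclease gene, and Ube2q1 (chr3:89773327-89773526), a ubiquitin-conjugating enzyme gene.
Rnasek, 16.5-fold in FOXP1: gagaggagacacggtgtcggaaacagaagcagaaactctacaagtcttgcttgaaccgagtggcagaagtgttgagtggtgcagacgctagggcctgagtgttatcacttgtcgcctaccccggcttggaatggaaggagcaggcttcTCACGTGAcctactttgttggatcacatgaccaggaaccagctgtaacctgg
Ube2q1, 14.8-fold in FOXP1: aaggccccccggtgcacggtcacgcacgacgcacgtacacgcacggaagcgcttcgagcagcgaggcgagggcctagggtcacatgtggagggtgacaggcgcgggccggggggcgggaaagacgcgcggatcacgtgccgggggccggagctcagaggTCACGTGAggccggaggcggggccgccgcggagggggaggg

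The overlap was lopsided. TCF7L2 was present at 87.1% (86.6 to 87.5%) of FOXP1 peaks, and FOXP1 at 39.7% (39.2 to 40.1%) of TCF7L2 peaks. Near promoters the shares were higher for both. Proximal peaks, those that touch the 2000 bp before the start of an annotated transcript, overlapped in 97.8% (97.5 to 98.0%) of FOXP1 and 65.9% (65.2 to 66.5%) of TCF7L2 cases. Distal peaks, all others, overlapped in 73.8% (72.9 to 74.6%) and 23.5% (23.1 to 24.0%). When only as many TCF7L2 peaks as there were FOXP1 peaks were kept, the strongest ones, the shares were 73.6% of FOXP1 and 69.8% of TCF7L2 peaks.

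Overlap moved with peak strength in both lists, and among distal FOXP1 peaks it was lower at the top. When TCF7L2 peaks were split into 10 equal bins by p-value, the share with FOXP1 climbed from 6.22% (5.60 to 6.90%) in the weakest bin to 97.5% (97.0 to 97.9%) in the strongest. FOXP1 peaks started at 78.4% (76.7 to 79.9%) in the weakest bin, reached 98.0% (97.4 to 98.5%) in the next to strongest and stood at 96.1% (95.2 to 96.8%) in the strongest. Behind that last dip were distal FOXP1 peaks. Their overlap was 73.4% in the weakest bin and 48.8% in the strongest. Of the 100 highest FOXP1 peaks without TCF7L2, at any position, 70 held an AAC run at the summit and 15 covered Foxp2 coding exons. The overlap by bin without such peaks was not computed. Above 20-fold, 9 of 24 distal FOXP1 peaks had TCF7L2 (37.5%, 21.2 to 57.3%), while 29 of 32 proximal ones did. Strong TCF7L2 peaks were rarely alone. All 49 between 15 and 20-fold had FOXP1, as had 9 of the 11 above 20-fold.

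**Figure D1:**
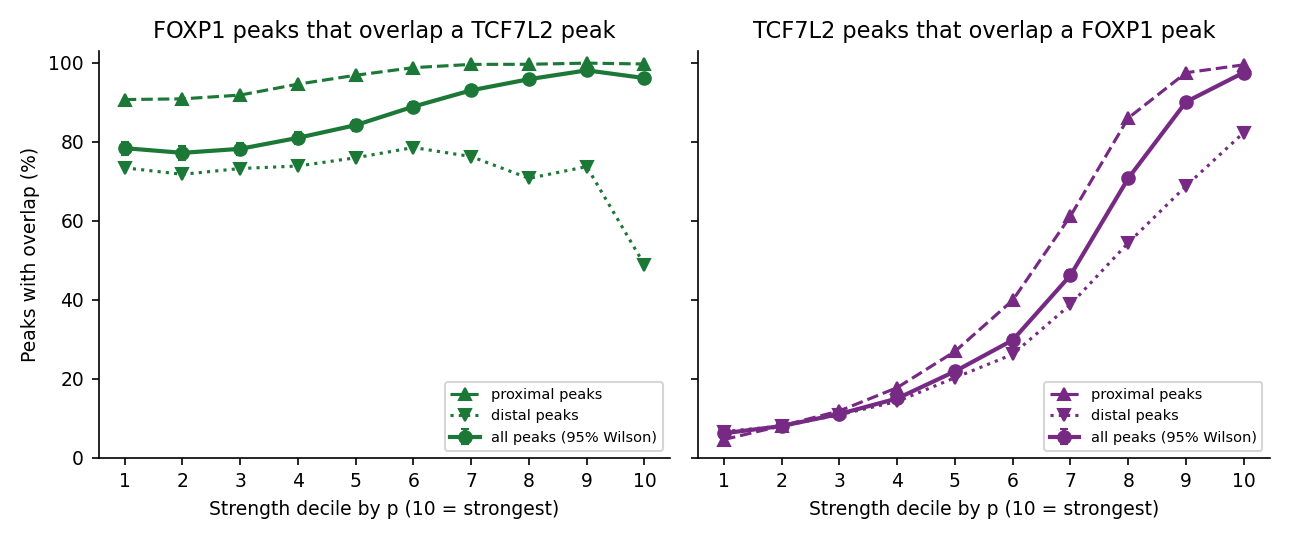
Share of FOXP1 peaks with TCF7L2 (left) and of TCF7L2 peaks with FOXP1 (right), in percent, by bin of peak strength (10 is strongest), for all peaks (circles, with 95% Wilson intervals), proximal peaks (upward triangles) and distal peaks (downward triangles). TCF7L2 peaks climb from 6.22% to 97.5%, while distal FOXP1 peaks fall to 48.8% in the strongest bin.

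Few peaks sat near the border that a single shared base sets. Of the FOXP1 peaks counted as shared, 35 had at most 20 bases in common with TCF7L2, the smallest overlap being 2 bases, against a median of 511 bases. Of those counted as FOXP1 alone, 108 lay under 100 bases from a TCF7L2 peak and 385 under 1000 bases, and the median gap was 18.8 kb. Peaks just inside and just outside the border had the same median fold enrichment, 4.24. TCF7L2 peaks without FOXP1 lay closer to FOXP1, with 5831 of 31740 within 1000 bases of a FOXP1 peak and a median gap of 11.5 kb.

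The genomic setting of the 2 exclusive classes was unlike that of the shared peaks. Shared FOXP1 peaks were proximal in 62.2% (61.5 to 62.9%) of cases. FOXP1 peaks without TCF7L2 were proximal in 9.61% (8.64 to 10.7%), and TCF7L2 peaks without FOXP1 in 21.6% (21.1 to 22.0%). FOXP1 peaks without TCF7L2 were instead intergenic in 44.3% (42.6 to 46.0%) and intronic in 38.7% (37.1 to 40.4%). TCF7L2 peaks without FOXP1 were intergenic in 26.0% (25.6 to 26.5%), intronic in 36.7% (36.2 to 37.2%), and in the 2000 bp after a start site in 11.3% (11 to 11.7%), compared with 4.63% (3.95 to 5.42%) of FOXP1 peaks without TCF7L2. The proximal shares of the exclusive classes depended on the settings. They were 28.3% for FOXP1 and 43.5% for TCF7L2 at a −log10 p of at least 15 in both lists. With start sites of protein-coding transcripts only they were 4.92% and 12.6%. When summits had to lie within 200 bp to count as shared, FOXP1 peaks without TCF7L2 were proximal in 40.5% and TCF7L2 peaks without FOXP1 in 26.4%, which turns their order.

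Distance to genes followed the same order. The median distance to the nearest protein-coding transcription start site (TSS) was 31.0 kb for FOXP1 without TCF7L2, 11.4 kb for TCF7L2 without FOXP1, and 0.246 kb for shared FOXP1 peaks. More than 100 kb away lay 27.7% (26.2 to 29.3%) and 15.2% (14.8 to 15.6%) of the exclusive classes. Exclusive peaks were also narrower and lower. Median widths were 261 bases for FOXP1 alone and 559 bases for shared FOXP1 peaks, with median fold enrichments of 4.68 and 6.0. For TCF7L2 the widths were 320 and 884 bases and the fold enrichments 3.17 and 5.36.

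**Figure D2:**
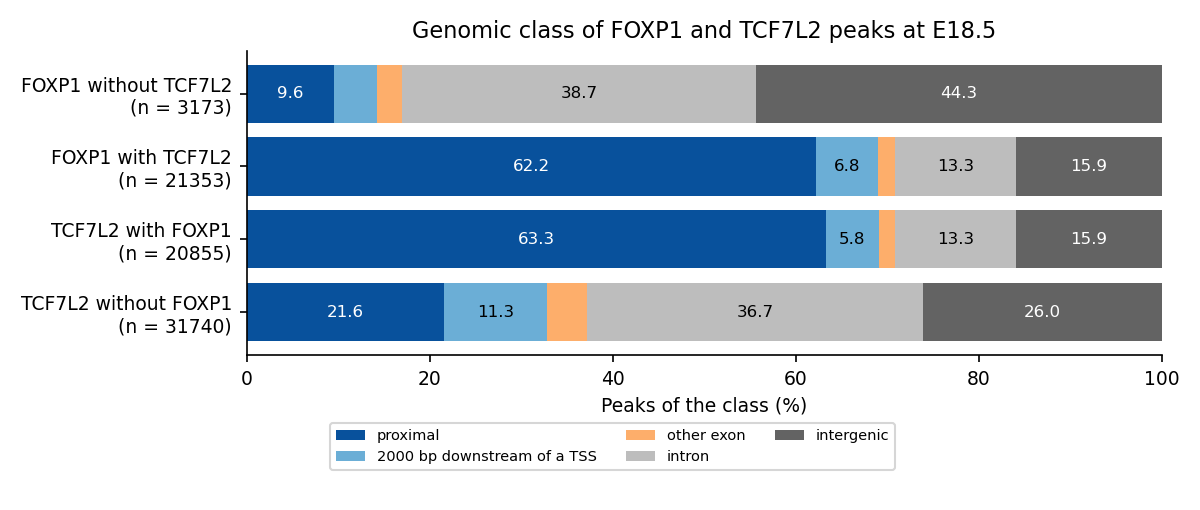
Genomic class of the peaks in each overlap class at E18.5, as percent of the peaks of that class, with the number of peaks beside each bar. Proximal peaks make up 62.2% of FOXP1 peaks with TCF7L2, 9.61% of FOXP1 peaks without it, and 21.6% of TCF7L2 peaks without FOXP1.

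Base composition moved with these classes. The median G+C content of the summit windows was 42.5% for FOXP1 without TCF7L2, close to the 42% of all 200-base windows of chromosomes 1 to 19. It was 52.5% for TCF7L2 without FOXP1 and 61.5% for shared FOXP1 peaks. Among distal peaks alone the values were 42% for FOXP1 without TCF7L2, 52% for TCF7L2 without FOXP1, and 52.5% for shared FOXP1 peaks. The 2 exclusive classes therefore differed in composition away from promoters as well. The part of base composition in any motif count was not tested.

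The same places were looked up in the lists of E15.5, which come from other libraries. Nearly all shared FOXP1 peaks (99.7%, 99.6 to 99.8%) met a FOXP1 peak at E15.5, and 89.2% (88.8 to 89.6%) met TCF7L2. FOXP1 peaks without TCF7L2 met FOXP1 at E15.5 in 73.1% (71.5 to 74.6%) and TCF7L2 in 5.64% (4.89 to 6.50%). These places thus lacked a TCF7L2 peak at both stages in most cases. TCF7L2 peaks without FOXP1 behaved differently. They met a FOXP1 peak at E15.5 in 65.2% (64.7 to 65.7%), more often than a TCF7L2 peak of E15.5 (35.1%, 34.6 to 35.7%). A total of 10954 of them (34.5%) had FOXP1 alone at the earlier stage, 9740 (30.7%) had both, 1414 (4.45%) had TCF7L2 alone, and 9632 (30.3%) had neither. When both lists were held to a −log10 p of 15 or more, 98.0% of the 7036 TCF7L2 peaks then without FOXP1 met TCF7L2 at E15.5. These 7036 include peaks whose FOXP1 peak fell below the cut, so the value does not describe the class above. The share that met FOXP1 was not recomputed.

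Depth moved with this result. The FOXP1 list of E15.5 corresponds to 64.5 M ChIP reads and holds 63281 peaks. The TCF7L2 list of E15.5 corresponds to 77.5 M ChIP reads, counted as 0.775 each, and holds 32579 peaks. At that stage 35594 FOXP1 peaks lacked TCF7L2 and 2136 TCF7L2 peaks lacked FOXP1, the reverse of E18.5. TCF7L2 had more ChIP reads than FOXP1 at both stages, with the larger exclusive class at E18.5 and the smaller one at E15.5. After scaling, the list with the higher background, TCF7L2 at E18.5 and FOXP1 at E15.5, had the larger exclusive class at each stage. The part of depth in the change between stages was not tested. ARID1B, a subunit of the BAF chromatin remodelling complex mapped in the same tissue, was found at 93.3% (92.9 to 93.6%) of shared FOXP1 peaks, 54.9% (54.3 to 55.4%) of TCF7L2 peaks without FOXP1, and 41.3% (39.6 to 43%) of FOXP1 peaks without TCF7L2.

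The FOXP1 peaks without TCF7L2 fell into 3 groups of unequal size. A run of AAC or GTT of at least 15 bases lay in the summit window of 923 of the 3173 (29.1%, 27.5 to 30.7%), 15 peaks covered coding exons of Foxp2, and 2235 had neither. These groups were chosen after the values were seen. The runs were rare elsewhere. They lay in 0.262% (56 of 21353) of shared FOXP1 windows, in 0.0473% (15 of 31740) of TCF7L2 windows without FOXP1, and in 0.256% (30708 of 11979192) of all 200-base windows. Windows moved by 400 bases from the summits of FOXP1 peaks without TCF7L2 held runs in 0.378% on one side and 0.504% on the other, so the runs stood at the summits and not beside them.

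The share with a run depended on peak height. Among the 100 highest FOXP1 peaks without TCF7L2, 70 held a run (70.0%, 60.4 to 78.1%), and 15 more were the Foxp2 exon peaks. At the very top the share was lower. A run lay in 3 of the 10 highest and 14 of the 30 highest, where 5 and 11 were Foxp2 exon peaks. In the 200 after the first 100 the share was 86.5% (81.1 to 90.6%), in the 700 after those it was 58.9% (55.2 to 62.4%), and beyond rank 2000 it was 5.97% (4.75 to 7.47%). Longer runs were also covered more often. Of all genomic runs of 15 to 19 bases, 1.06% (187 of 17666) lay under a FOXP1 peak, of those of 30 to 44 bases 16.4% (495 of 3016), and of those of 45 to 59 bases 44.1% (221 of 501, 39.8 to 48.5%). TCF7L2 peaks of the same stage covered between 0 and 0.599% of the runs in every length class.

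**Figure D3:**
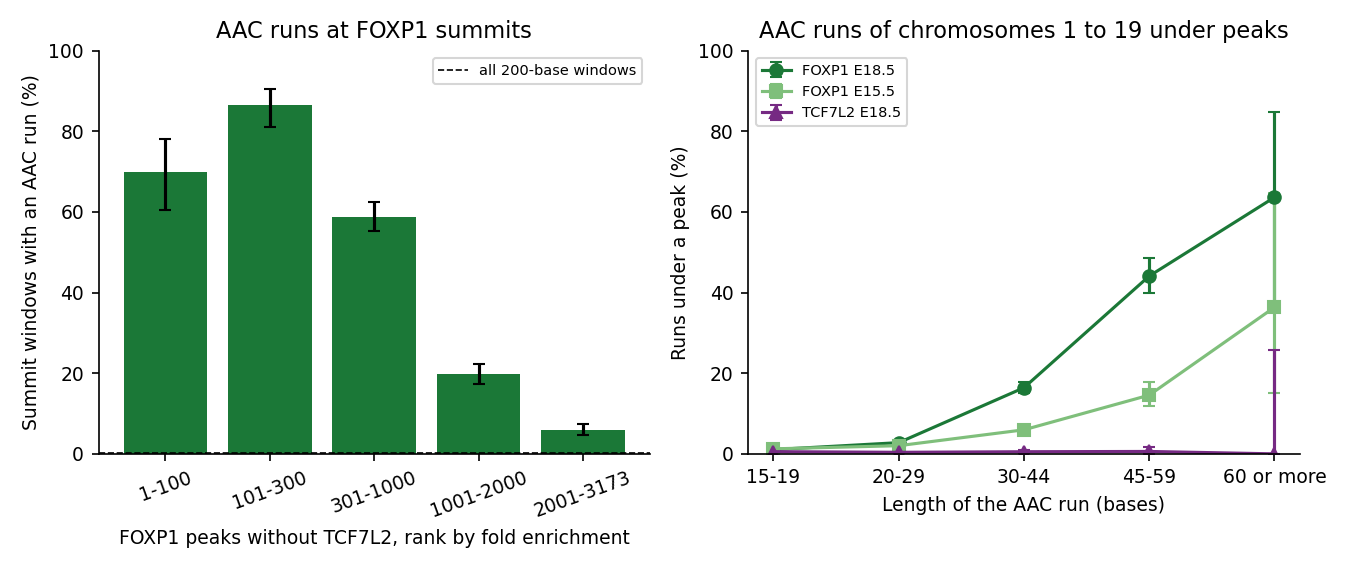
Left, share of FOXP1 peaks without TCF7L2 whose 200-base summit window holds an AAC run, in percent, by rank of fold enrichment, with 95% Wilson intervals and the share over all 200-base windows as a dashed line close to 0. Right, share of all AAC runs on chromosomes 1 to 19 that lie under a peak, in percent, by run length, for FOXP1 at E18.5, FOXP1 at E15.5 and TCF7L2 at E18.5: FOXP1 at E18.5 rises from 1.06% to 44.1% for runs of 45 to 59 bases while TCF7L2 stays below 0.6%.

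The AAC peaks were distal in 878 of 923 cases and lay a median of 67.1 kb from a protein-coding TSS, compared with 24.1 kb for the 2235 remaining peaks. The median G+C content of the windows was 38.5% and 45%, and these windows include the run itself. Of the AAC peaks 31.4% (290) met FOXP1 at E15.5 and 4.33% (40) met ARID1B at E18.5. Of the remaining peaks 90.8% (2030) met FOXP1 at E15.5 and 56.7% (1267) met ARID1B. Height went the other way, with a median of 6.0-fold for the AAC peaks and 4.38-fold for the remaining ones. Runs were less frequent in the FOXP1 list of E15.5, where 0.564% of 63281 summit windows held one compared with 3.99% of 24526 at E18.5. Among the 10 highest FOXP1 peaks without TCF7L2, those with AAC runs included the Slitrk1 and Cdc5l places shown above and one with Kcnh3 as the nearest protein-coding gene (25.6-fold).

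The Foxp2 exon peaks traced the coding sequence. FOXP2 is a forkhead factor of deep-layer cortical and striatal neurons, and its coding sequence falls into 18 blocks in the annotation. A FOXP1 peak lay over 16 of them, in 15 peaks, since 1 peak spanned the neighbouring blocks 13 and 14. Their fold enrichments ran from 11.7 to 32.3 with a median of 21.6, and 11 of the 15 were among the 30 highest FOXP1 peaks without TCF7L2. Each peak was fitted closely to its block, reaching a median of 157 bases beyond it on the left and 155 on the right, and 14 of the 15 had their summit inside a block. The blocks without a peak were block 3, of 75 bases, and block 5, of 30 bases.

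None of these 18 blocks had a TCF7L2 peak at E18.5 or a FOXP1 peak at E15.5, and ARID1B peaks at E18.5 touched 2 of them, at 3.65-fold and 5.05-fold. ARID1B peaks at E15.5 touched 4, at 4.01, 8.46, 4.90, and 3.39-fold, among them both of these blocks. The main promoter of Foxp2, in contrast, had peaks of both regulators. FOXP1 reached 8.8-fold at chr6:14900568-14901969 and TCF7L2 11.1-fold at chr6:14899801-14902082. The same pattern on a smaller scale was found at Dixdc1, which encodes a Wnt pathway protein with a DIX domain. There 5 FOXP1 peaks without TCF7L2, of 6.30 to 14.5-fold, lay on 5 of 22 coding blocks, and all 5 were without FOXP1 at E15.5 and without ARID1B at E18.5. No other gene had more than 2 coding blocks under FOXP1 peaks without TCF7L2. Both genes were singled out after their values were seen.

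**Figure D4:**
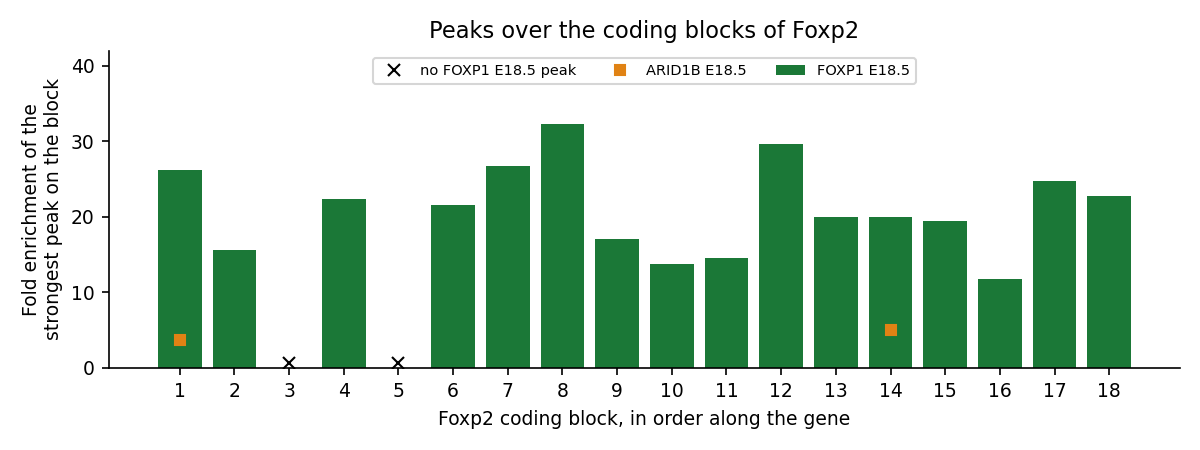
Fold enrichment (bars, linear axis from 0) of the FOXP1 peak at E18.5 over each of the 18 coding blocks of Foxp2 in order along the gene, with crosses where there was no peak and squares for ARID1B peaks at E18.5. Peaks of 11.7 to 32.3-fold stand over 16 of the 18 blocks, and no TCF7L2 peak does.

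The remaining 2235 FOXP1 peaks without TCF7L2 were lower. The highest of them lay in an intron of Tenm2, a teneurin that links synaptic partners, at chr11:36209696-36210502 with 30.4-fold, where FOXP1 at E15.5 had 10.4-fold. The forkhead core TGTTTAC lay in 4.29% (3.61 to 5.09%) of the distal windows of FOXP1 without TCF7L2, in 3.06% (2.71 to 3.46%) of distal shared FOXP1 windows, and in 2.58% (2.39 to 2.78%) of distal TCF7L2 windows without FOXP1. All 200-base windows held it in 2.98%. Among all FOXP1 peaks without TCF7L2 the share was 4.16%, and it was 2.75% (1.84 to 4.09%) when both lists were held to a −log10 p of 15 or more. By group it was found in 3.36% (2.38 to 4.73%) of the AAC peaks and 4.52% (3.73 to 5.46%) of the remaining ones, and in 0 of the 15 Foxp2 exon peaks.

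A core of the CTCF site, searched on both strands like all words here, was more frequent at distal FOXP1 than at distal TCF7L2 peaks. CTCF is the insulator protein that anchors chromatin loops, and this word was added after the values were seen. It lay in 5.51% (4.73 to 6.41%) of distal windows of FOXP1 without TCF7L2 and in 4.40% (3.97 to 4.87%) of distal shared FOXP1 windows. In distal TCF7L2 windows without FOXP1 it lay in 1.05% (0.929 to 1.18%), against 0.166% of all 200-base windows.

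The E-boxes were distributed differently. CAGCTG, a site of many basic helix-loop-helix factors, lay in 7.81% (6.88 to 8.85%) of distal windows of FOXP1 without TCF7L2, near the 7.37% of all windows. Distal TCF7L2 windows without FOXP1 held it in 19.6% (19.1 to 20.1%) and distal shared FOXP1 windows in 17.7%. CCATCTG, the form preferred by the proneural NeuroD and Neurog factors, lay in 10.8% (9.69 to 11.96%) of distal FOXP1 windows without TCF7L2, 12.6% (12.2 to 12.99%) of distal TCF7L2 windows without FOXP1, and 14.7% (13.96 to 15.51%) of distal shared FOXP1 windows, compared with 3.98% of all windows. Motif matches here describe letters in a window and are not evidence of a bound factor.

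TCF7L2 peaks without FOXP1 were led by a place upstream of Lef1, which encodes a TCF/LEF relative of TCF7L2. The peak at chr3:131105718-131108144 lay 4.39 kb before the Lef1 start, with 23.3-fold at E18.5 and 24.4-fold at E15.5, where FOXP1 had 7.21-fold. The second, at chr17:34971860-34973012 with 23.1-fold, covered the shared promoter of the heat-shock genes Hspa1a and Hspa1l, and FOXP1 at E15.5 had 3.67-fold there. Both places were strong for TCF7L2 at both stages and had FOXP1 at the earlier one. Distal peaks of 11.7 to 14.0-fold followed near Cadps, Zfp703, Atp6v1b2, BC034090, Enpp7, Cdh26, and Sdc3. All of these places met peaks of FOXP1 at E15.5 and of ARID1B at E18.5.

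The TCF/LEF core was concentrated at the top of this class. ATCAAAG lay in 15 of the 100 highest TCF7L2 windows without FOXP1 (15%, 9.31 to 23.3%), in 6.0% (4.06 to 8.77%) of the next 400, in 5.0% (4.01 to 6.22%) of the 1500 after those, and in 2.97% (2.78 to 3.17%) of the rest. All 200-base windows held it in 4.05%, so the bulk of the class was below that level and its top above it. The longer word GATCAAAG, added after the values were seen, ran from 9.0% (4.81 to 16.2%) in the top 100 to 0.894% (0.794 to 1.01%) beyond rank 2000, with 0.784% over all windows. Among TCF7L2 peaks with FOXP1 the 100 highest held ATCAAAG in 6.0% (2.78 to 12.5%).

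Promoters were counted by gene. Of 20807 protein-coding genes on chromosomes 1 to 19, 11693 (56.2%) had promoter peaks of both regulators, 1406 (6.76%) of TCF7L2 without FOXP1, and 96 (0.461%) of FOXP1 without TCF7L2. A gene counted here as having both need not have them at the same base, and its values are those of the strongest promoter peak in each list, which overlapped in 95.8% of these genes. A gene counted with TCF7L2 or FOXP1 alone had no promoter peak of the other regulator. Its peak can still overlap a peak of the other regulator outside the promoter. The FOXP1 promoters without TCF7L2 were led by Bbs2, a gene of the ciliary BBSome (14.1-fold, and 19.6-fold at E15.5). Rbm28, which encodes a nucleolar RNA-binding protein, followed with 9.39-fold, and 30.8-fold at E15.5. Scn11a, a sodium channel gene of sensory neurons, had 8.65-fold and no FOXP1 peak at E15.5. Of the 96, 73 (76.0%) had FOXP1 alone at E15.5 too, where 4.72% of all protein-coding genes did, and 16 had both. The count of FOXP1 alone was 61 with promoters of 1000 bp on each side of the TSS and 1815 when summits had to lie within 200 bp. That of TCF7L2 alone was 3125 under the summit rule. It was 662 when only as many of the strongest TCF7L2 peaks as FOXP1 has were kept.

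Promoters with a TCF7L2 peak and no FOXP1 peak were led, after the heat-shock pair, by Gm26558 (11.5-fold), Znrf4 (10.9-fold), and Apoh, a plasma glycoprotein gene (10.8-fold). Only 2 proximal TCF7L2 peaks of 10 to 15-fold overlapped no FOXP1 peak. Some TCF7L2 peaks named here therefore overlapped a FOXP1 peak that did not reach the promoter of the gene. The next 10 included Fam186b (9.63-fold), Gm10642 (9.2-fold), Sspo (9.09-fold), Oaz3 (8.87-fold), Iqcn (8.65-fold), and Ccdc166 (8.54-fold). The other 4 were Sp5, Sp9, Tlx3, and Cdh11. Sp5, a zinc-finger target of Wnt signalling, had 10.8-fold, and Sp9, a zinc-finger factor of striatal neurons, 10.6-fold. The homeobox gene Tlx3 had 8.65-fold and Cdh11, a cadherin gene, 8.54-fold. FOXP1 was present at 9 of these 10 promoters at E15.5, all but Sspo, from 3.04-fold at Iqcn to 15.8-fold at Oaz3. Among the 1406 such genes 712 (50.6%) had promoter peaks of both regulators at E15.5 and 389 (27.7%) FOXP1 alone, where 58.6% and 4.72% of all protein-coding genes did.

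Promoters with both regulators had different leaders in the 2 lists. By FOXP1 the highest were Drd1, the dopamine receptor of direct-pathway striatal neurons (59.1-fold), Lamp1, a lysosomal membrane glycoprotein (52.8-fold), Mfsd1, a lysosomal membrane transporter (47.1-fold), and Amdhd2, an enzyme of amino sugar metabolism (42.2-fold). TCF7L2 stood at 4.16, 8.87, 6.68, and 7.55-fold there. By TCF7L2 the highest were Rnf44, a RING finger gene (42-fold), Axin2 (37.5-fold), Ptov1 (28.2-fold), and Sfr1, a recombination factor (28.2-fold), with FOXP1 at 12.6, 8.21, 13.8, and 13.1-fold. Lamp1, Mfsd1, and Amdhd2 were as high in FOXP1 at E15.5, with 49.2, 44.7, and 43-fold, but Drd1 had 6.20-fold. The Drd1 peak, at chr13:54053741-54056017, also covered 453 of the 1338 coding bases of that gene. Its FOXP1 summit, at 54054347, lay inside the gene. The summits of TCF7L2 (54055755) and of FOXP1 at E15.5 (54055704) lay by the gene boundary at 54055705. The Drd1 values set side by side here therefore belong to different places. The same 59.1-fold was the FOXP1 maximum on other sequences outside chromosomes 1 to 19, and whether it is an upper limit was not tested.

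How far the 2 regulators ranked shared places alike depended on the position. Overlapping peaks were joined into 12666 proximal and 6987 distal loci. Spearman's rho of the p-value ranks was 0.756 across proximal loci and 0.354 across distal loci, given as a description, since loci share libraries and base composition. Summits lay close together in both, at a median of 82 and 76 bases. The proximal value depended on the range of strengths, as it was 0.307 when the 4000 proximal peaks of lowest p in each list were kept, while the distal value was then 0.364. At E15.5 the values over all loci were 0.821 across 14046 proximal and 0.530 across 12369 distal loci. A rank difference, the percentile of a locus among shared loci of its kind in FOXP1 minus that in TCF7L2, was beyond 50 points in either direction at 2.01% of proximal and 13.8% of distal loci. FOXP1 was the higher at 105 and 454 of these, and TCF7L2 at 150 and 512.

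**Figure D5:**
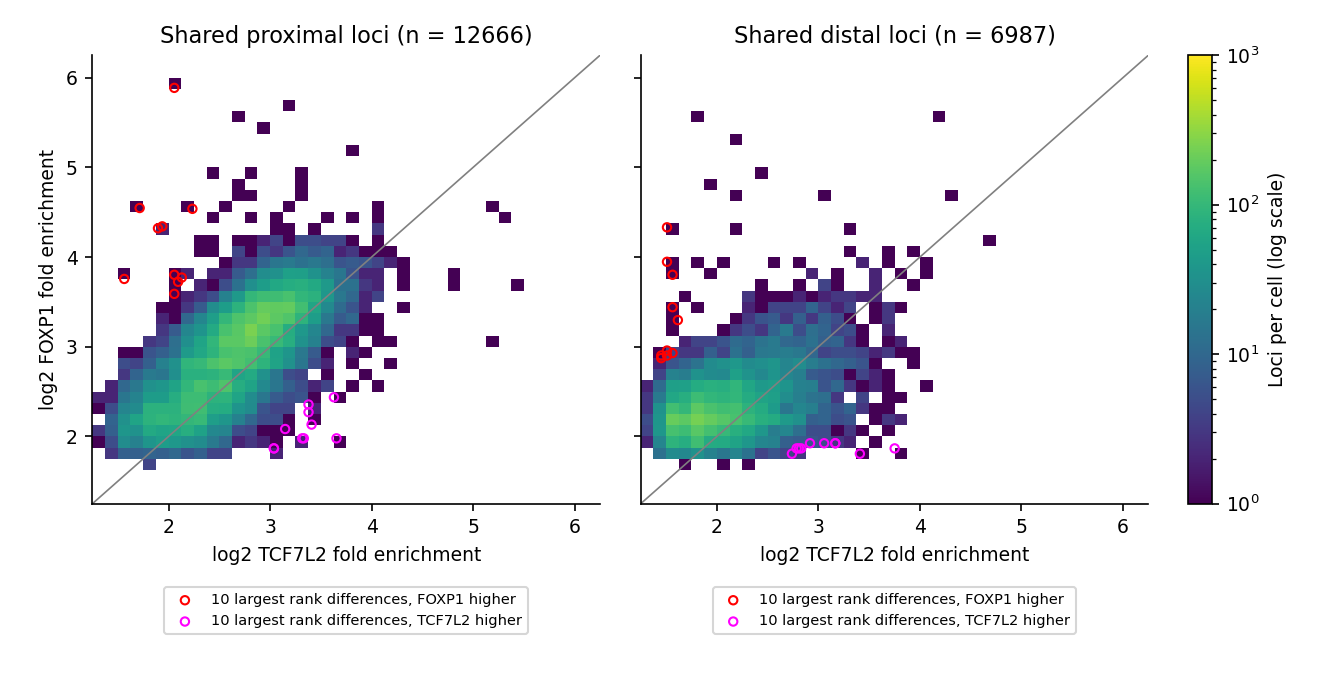
Log2 fold enrichment of FOXP1 against that of TCF7L2 at 12666 shared proximal loci (left) and 6987 shared distal loci (right), coloured by the number of loci per cell on a log scale, with the line of equal values in grey and the 10 largest rank differences in each direction circled. Proximal loci follow a diagonal band (rho 0.756), while distal loci form a broad cloud at low values (rho 0.354).

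The proximal loci ranked highest for FOXP1 relative to TCF7L2 were a mixed group. Hdac9, a class IIa histone deacetylase gene, had 23.4-fold in FOXP1 and 3.28-fold in TCF7L2. Dixdc1 had 13.5 and 2.96-fold, and Dnajc12, a chaperone partner, 19.98 and 3.72-fold. Dpp7, a lysosomal peptidase gene, had 20.3 and 3.83-fold, and Drd1 came next with the values given above. The remaining 5 were Cpm, Rfx8, Gm11992, Slc38a7, a lysosomal glutamine transporter gene, and a locus nearest to Map1b among protein-coding genes, with 12 to 23.2-fold in FOXP1 and 4.16 to 4.71-fold in TCF7L2. FOXP1 peaks at E15.5 were present at 9 of the 10, all but Dixdc1.

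The 10 proximal loci ranked highest for TCF7L2 relative to FOXP1 are given by their nearest protein-coding gene. Nfix, a nuclear factor I gene, had 12.6-fold in TCF7L2 and 3.94-fold in FOXP1. The homeobox genes Tlx2 (10.6 and 4.38-fold) and Otx1 (8.21 and 3.65-fold), the corepressor gene Cbfa2t3 (9.96 and 3.94-fold), and the remodeller gene Chd3 (8.21 and 3.65-fold) were among them. So were Ptch1, the Hedgehog receptor (10.4 and 4.82-fold), Yap1, the Hippo pathway coactivator (10.4 and 5.12-fold), and a locus near Rasgef1b, a Ras exchange factor gene (10.1 and 3.94-fold). Loci nearest to Sdccag8, a centrosome gene, and Gse1 made up the 10.

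Among distal loci FOXP1 led most at places near Fap, a serine protease gene (20.1 and 2.85-fold), Acvr1b, an activin receptor gene (15.4 and 2.85-fold), and Bcl9, a β-catenin cofactor gene (13.9 and 2.96-fold). TCF7L2 led most near Rasgef1b (13.5 and 3.65-fold in FOXP1), Tenm4, a teneurin gene (10.6 and 3.50-fold), Foxn2 (8.98 and 3.79-fold), and Gse1 (8.98 and 3.79-fold). The motif content moved along this scale. The CTCF core lay in the FOXP1 summit windows of 81 of 794 distal loci (10.2%, 8.28 to 12.5%) with a rank difference of at least 40 points toward FOXP1, and of 11 of 852 (1.29%, 0.722 to 2.30%) with as large a difference toward TCF7L2. The E-box CCATCTG went the other way, in 13.4% (11.2 to 15.9%) and 18.8% (16.3 to 21.5%) of the same loci.

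At proximal loci one word that moved toward FOXP1 was the E-box TCACGTGA, which MITF/TFE and USF factors recognise and which was added after the values were seen. It lay in the FOXP1 summit windows of 21 of 334 loci (6.29%, 4.15 to 9.42%) with at least 40 points toward FOXP1 and of 0 of 383 (up to 0.993%) toward TCF7L2. In the TCF7L2 summit windows of the same loci it lay in 13 of 334 (3.89%, 2.29 to 6.54%) and 0 of 383, and AAC runs in 0 of 334. Other words moved in the same FOXP1 summit windows. AAC runs lay in 8 of the 334 (2.4%) and 0 of the 383, and CCATCTG went the other way, with 0.898% (0.306 to 2.61%) and 7.05% (4.89 to 10.1%). The median G+C content was 59.75% and 68%, and its part was not tested. Among proximal FOXP1 peaks with TCF7L2, the 100 highest held the E-box in 19% (12.5 to 27.8%), the next 400 in 3.0% (1.72 to 5.17%), and ranks beyond 2000 in 0.851% (0.697 to 1.04%), against 0.103% of all windows. The 100 highest proximal TCF7L2 peaks with FOXP1 held none (0%, up to 3.70%).

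Genes of the lysosome, many of which carry such E-boxes, were therefore looked at, also after the values were seen. Of 48 lysosomal genes all 48 had promoter peaks of both regulators, compared with 56.2% of all protein-coding genes, and 31 of the 48 ranked higher in FOXP1, as did 5899 of the 11693 genes with both. The list was picked after its members Lamp1 and Ctsa had been seen among the highest FOXP1 promoters, so it gives no support of its own. The median rank difference between the promoter peaks of a gene was 5.29 points over the list and 0.265 points over all genes with both. Hexa, a hexosaminidase gene, had 21.5-fold in FOXP1 and 5.36-fold in TCF7L2, Ctsa, cathepsin A, 24.99 and 6.46-fold, and Cln3, a lysosomal membrane gene, 16.6 and 5.47-fold. Asah1, acid ceramidase, stood at the other end with 8.21 and 10.5-fold.

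Wnt pathway genes were described by role. Of 34 core components 32 had promoter peaks of both, 2 of TCF7L2 alone, and none of FOXP1 alone, compared with 56.2%, 6.76%, and 0.461% of all protein-coding genes. The median rank difference was -8.17 points, compared with 0.265 over all genes with both. Among the DNA-binding factors themselves Tcf7 leaned to TCF7L2 (10.4-fold, FOXP1 5.85-fold), Lef1 had TCF7L2 alone at its promoter (7.66-fold), and Tcf7l2 (6.68 and 6.30-fold in FOXP1) and Tcf7l1 (5.69 and 5.41-fold) had both, with rank differences of -23.7 and -15 points. The coreceptor gene Lrp6 leaned to FOXP1 the most in this list, with 14.4-fold in FOXP1 and 7.77-fold in TCF7L2.

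Wnt targets and feedback genes leaned further. Of 26 such genes 16 had both, 6 had TCF7L2 alone, 4 had neither, where 56.2%, 6.76%, and 36.6% of all genes did, and the median rank difference of the 16 was -22.0 points. Axin2 had a difference of -56.9 points, and Tnfrsf19, a TNF receptor gene, had 16.9-fold in TCF7L2 and 6.0-fold in FOXP1. Nkd2, an inhibitor of Dishevelled, had 6.88-fold in FOXP1 and 4.6-fold in TCF7L2. Of 19 Wnt ligand genes 7 had both, 6 TCF7L2 alone, such as Wnt2 at 3.28-fold, and 6 neither.

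Forkhead genes were bound by both regulators in 18 of 41 cases, by TCF7L2 alone in 15, and by neither in 8, where the shares over all genes were 56.2%, 6.76%, and 36.6%, with a median rank difference of -7.66 points. Foxp1 itself had 13.1-fold in FOXP1 and 9.52-fold in TCF7L2 at its promoter. At one Foxp4 promoter (chr17:47923947-47925347) FOXP1 had 8.65-fold and TCF7L2 8.54-fold, while the strongest TCF7L2 peak of the gene (10.5-fold) lay at another, chr17:47887141-47888390, with no FOXP1 peak at E18.5. Foxh1, which works with Smad proteins, leaned to FOXP1 (12.2 and 5.69-fold).

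The lists of cell identity genes had medians on both sides of 0. Over all protein-coding genes 56.2% had both regulators and 6.76% TCF7L2 alone, and the median rank difference over the genes with both was 0.265 points. Radial glia and intermediate progenitor genes, 20 with both and 4 with TCF7L2 alone out of 24, had a median of -41.4 points. Hes5, a Notch effector of radial glia, had 4.53-fold in FOXP1 and 9.85-fold in TCF7L2 in peaks that did not overlap, while Id4 had 9.68 and 7.12-fold. Upper-layer neuron genes stood at -9.62 points (16 of 17 with both), with Pou3f2 at 6.74 and 11.6-fold, and deep-layer and subplate genes at -5.45 points (12 of 19 with both). At Fezf2, a deep-layer regulator, TCF7L2 stood alone with 7.99-fold. Tbr1, a layer 6 regulator, had 3.94-fold in FOXP1 at E18.5, 13.9-fold at E15.5, and 6.13-fold in TCF7L2.

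Striatal projection neuron genes had a median of 1.24 points, with 10 of 24 bound by both and 10 by TCF7L2 alone. Thalamic genes stood at -11.4 points, with 9 of 20 bound by both and 10 by TCF7L2 alone. Over all protein-coding genes 56.2% had both, 6.76% TCF7L2 alone, and 36.6% neither. Among lists of other cell types, of 23 endothelial genes 16 had neither regulator, as had 14 of 18 microglial and 7 of 16 oligodendrocyte lineage genes, while of 17 interneuron genes 9 had TCF7L2 alone and 6 both. At the promoters of olfactory receptor genes, which are silent in cortex, 1124 of 1128 had neither.

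General gene groups are given beside the 56.2% of all protein-coding genes that had both and the median of 0.265 points over those genes. Ribosomal protein genes (76 of 79 with both) had a median of 7.53 points and nuclear genes of oxidative phosphorylation (74 of 82 with both) 10.4 points, for example Atp5g1 with 14.1-fold in FOXP1 and 6.68-fold in TCF7L2. Cell cycle genes stood at 3.92 points (36 of 37 with both). Axon guidance genes stood at -13.1 points (49 of 53 with both), genes of the BAF complex at -5.19 points (29 of 30), synaptic adhesion and scaffold genes at -1.37 points (32 of 37), and glutamate and GABA receptor genes at -0.0684 points (32 of 39). In the voltage-gated channel list, 3 of 54 genes had FOXP1 alone, where 0.461% of all genes did, a difference that was not tested. Scn2a, a sodium channel of excitatory neurons, had 21.7-fold in FOXP1, 6.02-fold in TCF7L2, and 50.6-fold in FOXP1 at E15.5, and its strongest FOXP1 promoter peak did not overlap its TCF7L2 peak.

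The genes nearest to distal exclusive peaks were counted for each class. FOXP1 peaks without TCF7L2 were nearest to 2101 of the 20807 protein-coding genes and TCF7L2 peaks without FOXP1 to 6883. By number of peaks the first set was led by Ptprd, a receptor phosphatase gene of synapses (13 peaks), Foxp2 (12, the number of distal peaks on its coding exons described above), and Celf2, a splicing regulator gene (10). The second was led by Gse1 (133 peaks), Dnah8, an axonemal dynein gene (90), Auts2 (77), Nfib, a nuclear factor I gene (73), Tenm4 (69), and Tcf4 (64). At Gse1 there was no FOXP1 peak without TCF7L2 and at Tcf4 there was 1. The leading genes of the first set also had TCF7L2 peaks without FOXP1, 13 at Ptprd, 8 at Foxp2, and 37 at Celf2, and 1462 genes were in both sets.

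Some gene lists divided the distal peaks unevenly. Genes of synaptic adhesion and scaffolding were nearest to 60 of 2868 distal FOXP1 peaks without TCF7L2 (2.09%, 1.63 to 2.68%) and to 154 of 24900 distal TCF7L2 peaks without FOXP1 (0.618%, 0.528 to 0.724%). Of distal FOXP1 peaks with TCF7L2 they took 0.867% (0.687 to 1.09%). Wnt core genes took 0.244% (0.118 to 0.503%) and 0.739% (0.640 to 0.853%), and radial glia and intermediate progenitor genes 0.244% (0.118 to 0.503%) and 0.839% (0.733 to 0.961%). Axon guidance genes took similar shares of both, 1.36% (0.996 to 1.85%) and 1.73% (1.57 to 1.90%), as did forkhead genes, 0.872% (0.591 to 1.28%) and 0.851% (0.745 to 0.973%). The lengths of the genes and of the gaps between them were not taken into account, and the shares without the AAC peaks were not computed.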

How the data were processed

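ChIP-seq peak lists of FOXP1 and TCF7L2 in E18.5 mouse cortex were compared. Per the authors' methods and the submitters' processing notes, reads were aligned to mm10 (GRCm38) with BWA 0.7.15 and filtered with SAMtools, and narrow peaks were called with MACS2 2.2.7 on merged replicates (2 ChIP and 2 input libraries per regulator and stage) against a constant background. How duplicates were handled is not stated in those sources. The deposited columns used were the fold enrichment at the summit, a ratio over background, and the −log10 p value, as MACS2 wrote them.

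Peaks on chromosomes 1 to 19 were classed by 1 shared base. Genomic classes, nearest protein-coding TSSs and promoters (2000 bp upstream) used GENCODE mouse release 21, where the authors name release 23. Motif words were counted on both strands in 200-base windows around summits. Shares carry 95% Wilson intervals. With 1 list per regulator and stage, no test between conditions was possible. Named genes were the 10 highest peaks per class, the 10 largest rank differences each way, the FOXP and TCF/LEF families, and the extremes of each of 23 gene lists. Members and lists were chosen with earlier results of these data known. Promoter genes by rank beyond this rule, AAC runs, 3 words, coding exons, lysosomal genes and counts of nearest genes were added after the values were seen. Scripts (Python 3.11.15, numpy 2.4.6, pandas 2.3.3, scipy 1.17.1, statsmodels 0.14.6, matplotlib 3.10.9) were tested on simulated data. Some items among the named genes are not reported here. Alternatives varied the overlap rule, strength, promoter, window and list length.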

Additional observations from a re-analysis of the deposited data

Results flagged for a closer look

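The difference between the regulators in the share of proximal peaks had opposite signs at the 2 stages. FOXP1 minus TCF7L2 was -18.9 percentage points at E15.5 and 17.3 percentage points at E18.5. The difference between stages was not tested, since each stage had 1 merged list per regulator. The lists at E15.5 held 63281 FOXP1 and 32579 TCF7L2 peaks, and those at E18.5 24526 and 52595.

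Peaks outside chromosomes 1 to 19 entered no comparison. On chromosome X there were 338 FOXP1 peaks at E18.5, of which 91.4% (87.9 to 94.0%) overlapped TCF7L2, and 565 TCF7L2 peaks, of which 54.9% (50.7 to 58.9%) overlapped FOXP1. The highest stood at 11.2-fold and 10.6-fold. On other sequences outside chromosomes 1 to 19 there were 26 FOXP1 peaks, all with TCF7L2 (87.1 to 100% by the Wilson interval), and 59 TCF7L2 peaks, of which 39.0% (27.6 to 51.7%) had FOXP1, with maxima of 59.1-fold and 29.4-fold.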

How the results depend on the processing

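Of 82 values computed under an alternative for 14 results, 27 stayed within the interval of the reported value or, for counts of genes, within 1.5 times or, for rho, within 0.05, and 55 moved further. The order of the proximal shares of the exclusive classes turned when summits had to lie within 200 bp, that of the proximal and distal rho (0.307 and 0.364) over the 4000 peaks of lowest p, and that of the E15.5 shares of the exclusive classes at the stricter p (78.0% and 98.0%). At the stricter p, peaks whose partner fell below the cut count as exclusive, so those classes hold other peaks than the main ones. Values below are given in the order FOXP1 overlap, TCF7L2 overlap, proximal share of FOXP1 without TCF7L2, proximal share of TCF7L2 without FOXP1, E15.5 FOXP1 share of FOXP1 without TCF7L2, E15.5 TCF7L2 share of TCF7L2 without FOXP1, and number of genes with FOXP1 promoter peaks alone. Requiring 50% of the shorter peak gave 85.1%, 37.6%, 13.2%, 22.3%, 75%, 32.9%, and 222. Summits within 200 bp gave 68.2%, 31.8%, 40.5%, 26.4%, 57.9%, 31.9%, and 1815, with 3125 genes for TCF7L2 alone. A −log10 p of at least 15 in both lists gave 91.6%, 57.1%, 28.3%, 43.5%, 78.0%, 98.0%, and 177. Keeping as many of the strongest TCF7L2 peaks as FOXP1 has gave 73.6%, 69.8%, 16.2%, 23.3%, 86.2%, 78.5%, and 455, with 662 genes for TCF7L2 alone. A TCF7L2 fold enrichment of at least the lowest FOXP1 value gave 80.8%, 57%, 12.4%, 23%, 81.4%, 58.4%, and 212. The proximal share of FOXP1 peaks with TCF7L2 was 91.1%, 69.5%, and 65.6% under the last 3 of these.

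Promoters of 1000 bp on each side gave 25.01% proximal TCF7L2 peaks without FOXP1, 65.4% proximal shared FOXP1 peaks, and 61 genes with FOXP1 alone. With TSSs of protein-coding transcripts only, the proximal shares were 4.92% for FOXP1 alone, 12.6% for TCF7L2 alone, and 55.1% for shared FOXP1 peaks. The proximal rho was 0.583 over the 10000 proximal peaks of lowest p and 0.307 over the 4000. The forkhead core was in 2.75% of FOXP1 windows at the stricter p and in 2.21% of 100 bp windows, and the TCF/LEF core of TCF7L2 without FOXP1 in 1.64% of 100 bp windows and 3.36% of distal windows. Leaving out the 979 FOXP1 peaks with an AAC run, an alternative chosen after seeing the data, gave 90.4% overlap, 11.6% proximal, and 90.2% with FOXP1 at E15.5 for FOXP1 without TCF7L2. Leaving out 20 coding-exon peaks of Foxp2 and Dixdc1, also chosen after seeing the data, moved none of the 4 values beyond its interval. The causes were not tested, except that a stricter list holds fewer peaks by construction.

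No paired analysis was possible because the replicates were merged before peaks were called, and for the same reason no replicate was left out. The weakest FOXP1 peak rests on 20 unscaled reads at the summit over a background of 5.01, and the weakest TCF7L2 peak on 21 over 8.14.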

Other observations

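Coding exons under TCF7L2 peaks without FOXP1 were concentrated in other genes than those of FOXP1, as seen after the values were known. Dnah8, an axonemal dynein gene, had 25 such peaks on 24 of its 92 coding blocks. Mroh2a had 13 peaks on 17 of 42 blocks, Gse1 had 10 peaks on 12 of 19, and Kdm6b, a histone demethylase gene, had 8 peaks on 11 of 20.

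Among the places bound by both, several of the highest peaks were far from known promoters of protein-coding genes. An intergenic peak nearest to Ezh2, the H3K27 methyltransferase gene, had 46.5-fold in FOXP1. An intronic peak with Rpusd4 as the nearest protein-coding gene by TSS had 25.4-fold in FOXP1 and 19.9-fold in TCF7L2, and one 68.2 kb downstream of the Axin2 start had 26.1-fold in TCF7L2. Cwc22, a splicing factor gene, was the nearest gene to 70 distal FOXP1 peaks with TCF7L2 and 9 without.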
